A study of Sus scrofa with 24 samples.

Results

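GABA-A receptors are chloride channels opened by the inhibitory transmitter GABA, and the 7 genes described here encode subunits of these channels: GABRA2, GABRA3, GABRA4 and GABRA5 (alpha subunits), GABRB1 and GABRB2 (beta subunits) and GABRD (the delta subunit). They were found by gene symbol among the 38882 genes counted in the hippocampus of 24 piglets, and all 7 passed the filter on low counts that left 16326 genes for testing. Piglets were the offspring of PIC Camborough dams and PIC 359 sires, were killed at 14 days of age, and were small (SGA) or appropriate (AGA) for gestational age by birth weight. They received a control formula (CON), whose fat was triglyceride oil, or a hydrolyzed fat formula (HF), in which free fatty acids, monoacylglycerol palmitate and lecithin replaced part of the triglyceride. Each combination of size and diet (AGA CON, SGA CON, AGA HF, SGA HF) held 6 piglets. An SGA piglet and an AGA littermate of the same sex were on the same diet, which gave 12 litters, 6 on each diet, studied in 2 cohorts of 12 piglets. Birth weight is the marker of growth restriction in this model. A library mixes the cell types of the dissected tissue, so fewer cells of a type and less RNA per cell cannot be told apart. Which part of the hippocampus was homogenized is not stated.

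A GABA-A receptor is a ring of subunits, most often alpha, beta and gamma, with delta in place of gamma in receptors outside the synapse. The alpha subunit sets much of the channel's kinetics and drug sensitivity. In the rodent brain the products of GABRA2, GABRA3 and GABRA5 are prominent before and around birth, whereas those of GABRA4 and GABRD rise later, so the alpha mix is used as a sign of maturation. The GABRA5 product is abundant in the pyramidal cells of the hippocampus, and the GABRA4 and GABRD products form receptors in the granule cells of the dentate gyrus that carry tonic inhibition. In immature neurons chloride can flow outward through these channels, which makes GABA depolarizing until the chloride exporter SLC12A5 rises.

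Reads counted on genes ranged from 6017336 to 9284355 per library, with a median of 7346072. Levels are CPM (counts scaled to a common library size) with library sizes scaled by the TMM method, and 3 counts correspond to 0.320 to 0.494 CPM. Neuron markers were present in all libraries, with SLC17A7, the vesicular glutamate transporter of principal neurons, at a median of 3429 CPM and CAMK2A at 3663 CPM. The dentate granule cell marker PROX1 had a median of 50.5 CPM, while ZBTB20 had at most 1 count and CALB1 at most 12 counts in a library. A pair of libraries stood apart, AGA CON replicate 2 (litter 4) and AGA HF replicate 4 (litter 7). The summed level of 7 pan-neuronal markers was 4010 and 4881 CPM in them, against 7110 to 9406 CPM in the other 22 libraries, and their astrocyte marker sums were the highest, 14145 and 13993 CPM. For the 7 genes, littermate differences over both diets and the alpha subunit ratio are given both ways where they change without these litters. Correlations of the 7 genes that change without these libraries are also given both ways. Littermate comparisons of marker sums and of other genes are given over all litters only.

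On the Sscrofa10.2 assembly of the deposited files, the subunit genes lie in clusters. GABRA2 lies on chromosome 8 from 38215163 to 38344937 on the minus strand, with 12 annotated exons. GABRA4 follows on the same strand from 38744693 to 38811740 with 9 exons, and GABRB1 lies on the plus strand from 39176670 to 39275449 with 5 exons. The gap between GABRA2 and GABRA4 is 399.8 kb and that between GABRA4 and GABRB1 is 364.9 kb. GABRB2 lies on chromosome 16 from 67212830 to 67464338 (plus strand, 12 exons), on the same chromosome as GABRA6. GABRA5 lies on chromosome 1 from 156791330 to 156874272 (minus strand, 12 exons), with GABRG3 655.3 kb away. GABRA3 lies on chromosome X from 141020707 to 141147922 (minus strand, 4 exons), between GABRE and GABRQ. GABRD lies on chromosome 6 from 58561062 to 58563060 (plus strand, 4 exons) with no other subunit gene of the list on that chromosome. The summed exon models were 577 nt for GABRA3 and 550 nt for GABRD, against 2882 to 9131 nt for the other members. The levels per length of GABRA3 and GABRD thus rest on short gene models. RNA was selected by polyA tail, and the paper ascribes the average RNA quality number of the samples to pre-spliced RNA. The part of RNA quality in levels per length, and so in the order and shares of the genes by that measure, was not tested.

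The 7 genes covered a wide range of levels. Per kilobase of exon model, GABRA5 was highest at 62.1 ± 11.0 CPM per kb (mean ± SD, n = 24 libraries), followed by GABRD at 28.9 ± 5.51, GABRA2 at 10.4 ± 1.63 and GABRA4 at 9.43 ± 1.55 CPM per kb. GABRA3 had 3.15 ± 1.40, GABRB1 1.01 ± 0.324 and GABRB2 0.145 ± 0.0661 CPM per kb. Within single libraries this order held in 24 of 24 for each pair of neighbours except GABRA2 and GABRA4, where GABRA2 was the higher in 19 of 24, so these levels overlap. Of the summed level per kb of the 7 genes, GABRA5 made up 53.7 ± 3.22% and GABRD 25.2 ± 3.79%. GABRA2 and GABRA4 held 9.14% and 8.24% on average. The rank and share of GABRD rest on its exon model of 550 nt. In counts, GABRD (median 126.5 per library) was below GABRA2 (median 740) and GABRA4 (median 274). The share of GABRA5 lay between 48.7 and 64.7% over the 24 libraries.

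**Figure D1:**
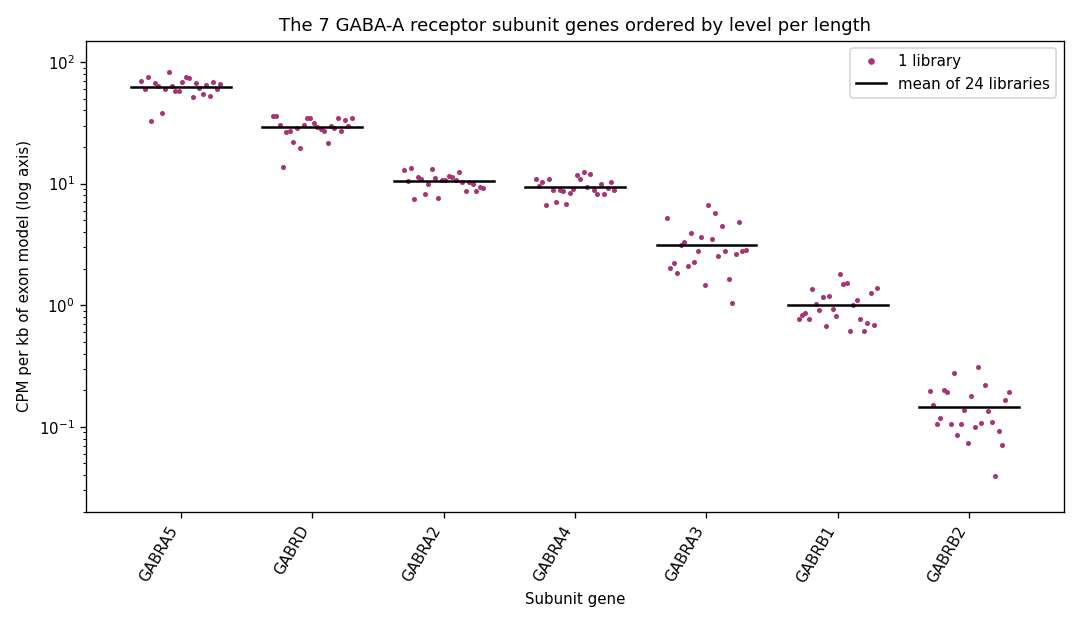
Level of the 7 subunit genes in CPM per kb of exon model on a log axis; each point is 1 of 24 libraries and the black bar is the mean. GABRA5 and GABRD stand above the others at means of 62.1 and 28.9 CPM per kb, GABRA2 and GABRA4 overlap, and GABRB2 is lowest at 0.145. GABRD is divided by a model of 550 nt, and its counts lie below those of GABRA2 and GABRA4.

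Several other subunit genes lay in the range of the low members. GABRE, GABRR1, GABRG1, GABRR2 and GABRG3 had means from 0.483 to 1.18 CPM per kb (n = 24 libraries). In counts, GABRA3 (median 14 per library) was below GABRB1 (median 20.5), and the deposited gene models were not compared with full transcripts here. GABRA6, GABRP and GABRQ had at most 2 counts in any library and were not tested, and no row was matched to GABRR3.

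The spread between libraries was wider for the low genes. For GABRA5, GABRA2 and GABRA4 the coefficient of variation over 24 libraries was 17.8%, 15.6% and 16.5%, where counting error alone gives 2.75%, 3.77% and 5.99%. For GABRD it was 19.0% against 9.23%. GABRB1 varied by 32.0% against a counting error of 21.3%, GABRA3 by 44.6% against 27.3%, and GABRB2 by 45.7% against 34.97%. GABRB2 had between 2 and 17 counts in a library and reached 1 CPM in 12 of 24.

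None of the 7 genes differed between SGA and AGA piglets in the test across all genes. Counts were fitted with edgeR's quasi-likelihood test on the 4 groups, sex and 5 surrogate variables, and p-values were adjusted by the Benjamini-Hochberg method (FDR p) over 7 contrasts together and called at under 0.4, the threshold of the study's heat map. For size, 0 of 7 genes were called (78 of 16326 genes, 0.478% of those tested), 0 had an unadjusted p under 0.05, and the smallest FDR p was 0.75. The median log2 fold change of the 7 was -0.02, beside -0.002 over all genes tested, and 2 of 7 fitted estimates were higher in SGA piglets. These are adjusted for the surrogate variables. The plain littermate differences in log2 CPM had a mean above 0 for 5 of 7 genes, and for 4 of 7 without litters 4 and 7. DESeq2 and limma voom with the same terms also called 0 of 7. With littermates paired by a litter block and no sex term or surrogate variables, 0 of 7 were called and 2.57% of all genes (420).

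GABRA4, the alpha subunit that rises with maturation, had the most even difference between littermates. Its level was 27.0 to 38.6 CPM in AGA CON piglets (median 35.8), 35.8 to 43.8 in SGA CON (median 37.2), 28.3 to 43.6 in AGA HF (median 38.02) and 32.8 to 50.0 in SGA HF piglets (median 44.2). The ranges of the groups overlapped. The SGA piglet was higher than its littermate in 9 of 12 pairs, in 4 of 6 on CON and 5 of 6 on HF, and in the 3 others it was lower by at most 0.08 on the log2 scale. The mean difference was 0.18 ± 0.17 (SD, 12 pairs, log2 CPM). It was largest in litter 4, from 27.0 to 37.8 CPM, which includes a library that stood apart, and in litter 10, from 27.4 to 36.6 CPM. In cohort 1 the mean difference was 0.20 with 5 of 6 pairs higher, and in cohort 2 it was 0.17 with 4 of 6.

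The tests of GABRA4 differed in whether it passed. In the fit across all genes its size effect was 0.11 (log2, SE 0.076, adjusted p = 0.839 by edgeR's quasi-likelihood test). With a litter block, without the sex term and surrogate variables, it was 0.18 (SE 0.059, unadjusted p = 0.00587, adjusted p = 0.415 by edgeR), just outside the threshold. In an exact sign-flip test of the 12 littermate differences, two-sided and adjusted over all 16326 genes, p was 0.00391 and FDR p 0.173. That rule called 1 of 7 members and 12.7% of all genes tested, so the share called among the 7 was near the background. Without litters 4 and 7 the mean difference was 0.15 with 7 of 10 pairs higher, the exact test gave p = 0.0156 and adjusted p = 0.395, and this rule called 1 of 7 members and 3.96% of all genes. With 1 litter left out this test also called GABRA3 without litter 8 (FDR p 0.339, 8 of 11 pairs higher), where it called 15.5% of all genes, and GABRA5 without litter 9 (FDR p 0.314, 8 of 11 pairs higher), where it called 9.8%. In the 10 litters other than 4 and 7 edgeR gave 0.15 with adjusted p = 0.791, and 0.15 with adjusted p = 0.751 with the litter block.

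Markers of some cell types moved with the littermate comparison. The summed level of 8 oligodendrocyte markers, which mark the cells that make myelin, was lower in the SGA piglet in 11 of 12 pairs, from 12119 to 23870 CPM in SGA (median 17792) and 14429 to 26239 CPM in AGA piglets (median 23171). In the fit 0 of these 8 genes were called for size. All 8 had a lower estimate in SGA piglets (median log2 fold change -0.21). Of them, 3 had an unadjusted p under 0.05, beside 10.6% of all genes tested. Across the 24 libraries the log2 level of GABRA4 had a Pearson correlation of -0.637 with this sum, and -0.565 without AGA CON replicate 2 and AGA HF replicate 4. This correlation pools the cohorts, where GABRA4 had means of 41.0 (cohort 1) and 34.6 CPM (cohort 2). The part of cohort in it was not tested. The sum of principal neuron markers was higher in SGA piglets in 10 of 12 pairs. For other neuron lists it was higher in 6 of 12 pairs (pan-neuronal markers) and 7 of 12 (interneuron markers). All these counts of pairs include litters 4 and 7. Of 10 tested principal neuron markers, 9 had a higher estimate for size and 1 was called (adjusted p = 0.308 by edgeR), beside 0.478% of all genes. An unadjusted p under 0.05 was found for 6 of the 10, beside 10.6% of all genes. The part of these markers in the GABRA4 difference was not tested.

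**Figure D2:**
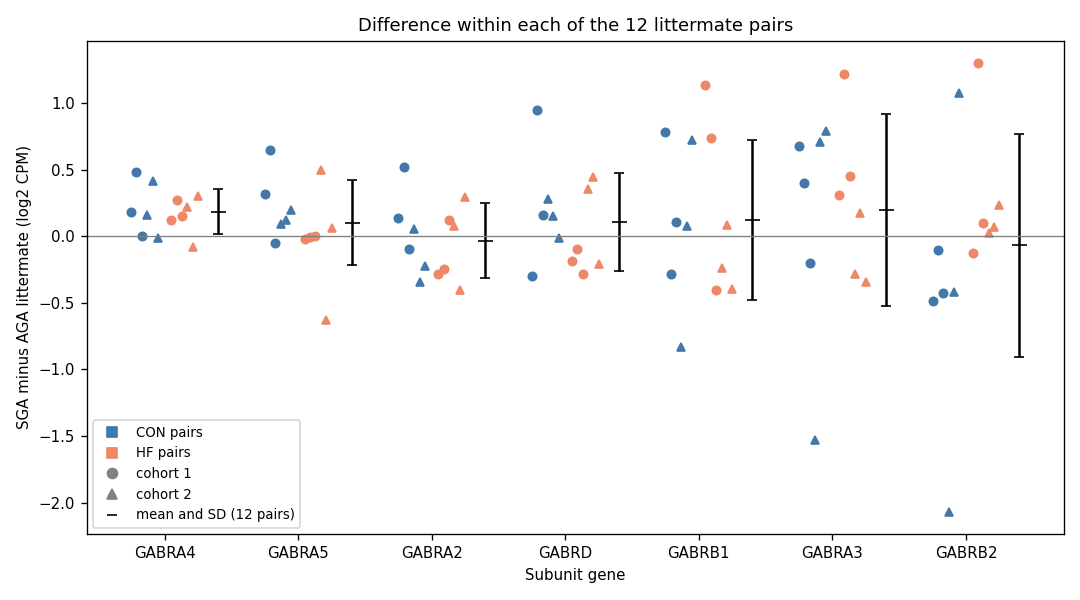
SGA minus AGA difference in log2 CPM within each of 12 littermate pairs for the 7 genes; blue points are CON and orange points HF pairs, circles cohort 1 and triangles cohort 2, with the mean and SD over 12 pairs in black. GABRA4 points lie between -0.08 and 0.48 around a mean of 0.18, whereas those of GABRB2 spread from -2.07 to 1.30.

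GABRA5, the most abundant of the 7, was lowest in the libraries that stood apart. It had 94.9 CPM in AGA CON replicate 2, where the other 5 libraries of that group lay between 165.2 and 181.6 CPM, and 110.8 CPM in AGA HF replicate 4. SGA CON piglets ranged from 148.9 to 216.9 CPM (median 187.3), AGA HF from 110.8 to 236.5 (median 196.3) and SGA HF from 152.5 to 214.4 CPM (median 183.8). The littermate difference was 0.10 ± 0.32 (log2, SD, 12 pairs) with the SGA piglet higher in 8 of 12. Without litters 4 and 7 it was 0.007, with 6 of 10 pairs higher. The fitted size effect was 0.02 (SE 0.062, adjusted p = 0.973 by edgeR), and 2 standard errors either way span -0.10 to 0.14.

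GABRA2, an alpha subunit of synapses on principal neurons, showed no common direction either. AGA CON piglets had 68.2 to 101.9 CPM (median 96.9), SGA CON 80.1 to 105.2 (median 94.1), AGA HF 69.4 to 122.0 (median 110.8) and SGA HF 79.0 to 112.8 CPM (median 94.1). The lowest value of the 24 was again AGA CON replicate 2. The SGA piglet was higher in 6 of 12 pairs, with a mean difference of -0.03 ± 0.28 (log2, SD, 12 pairs). Without litters 4 and 7 it was higher in 4 of 10, with -0.10 ± 0.24. The fitted size effect was -0.02 (SE 0.058, adjusted p = 0.972 by edgeR), with a span of 2 standard errors from -0.14 to 0.10.

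GABRD, the delta subunit of receptors outside the synapse, had an unadjusted p under 0.05 in 2 of the pairwise contrasts, neither of which passed the adjustment. It ranged from 7.53 to 19.8 CPM in AGA CON (median 16.1), 10.9 to 19.7 in AGA HF (median 15.6), 14.8 to 19.1 in SGA CON (median 17.5) and 11.9 to 17.3 CPM in SGA HF piglets (median 15.6). The fit gave a log2 fold change of -0.26 for SGA against AGA on HF (SE 0.110, unadjusted p = 0.0258, adjusted p = 0.668 by edgeR) and 0.25 for HF against CON in AGA piglets (SE 0.113, unadjusted p = 0.0348, adjusted p = 0.699). These fitted values are adjusted for the surrogate variables, and the plain littermate values differed from them. On HF the SGA piglet was higher in 2 of 6 pairs, with a mean difference of 0.005 ± 0.31 (log2, SD). On CON it was higher in 4 of 6 pairs with a mean difference of 0.20 ± 0.42, of which litter 4 alone had 0.95. Without litters 4 and 7 the mean difference over both diets was -0.005 ± 0.25, with 4 of 10 pairs higher, in place of 0.10 ± 0.37 with 6 of 12.

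GABRB2, a beta subunit, had the largest fitted effects and the fewest counts. The fit gave a log2 fold change of -1.002 for SGA against AGA on CON (SE 0.358, unadjusted p = 0.0106, adjusted p = 0.588 by edgeR) and 0.005 on HF (adjusted p = 1.0). The interaction was 1.01 (SE 0.472, unadjusted p = 0.0442, adjusted p = 0.721), and HF against CON in SGA piglets was 0.84 (SE 0.349, unadjusted p = 0.0242, adjusted p = 0.665). AGA CON piglets had 4 to 16 counts, SGA CON 2 to 9, AGA HF 4 to 12 and SGA HF 6 to 17 counts, so the groups overlapped and a few reads set each value. The SGA piglet was higher in 1 of 6 pairs on CON and in 5 of 6 on HF. The lowest littermate difference was -2.07 in litter 8 on CON, from 2.12 CPM in the AGA to 0.303 CPM in the SGA piglet, the latter under the level of 3 counts. Over 12 pairs the mean difference was -0.07 ± 0.84 (log2, SD), and the exact permutation test of the difference between diets gave an FDR p of 0.989. The fitted size effect was -0.50 (SE 0.252, adjusted p = 0.75 by edgeR) and -0.09 with the litter block (adjusted p = 0.963).

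GABRB1 and GABRA3 were also low, with 11 to 39 and 4 to 28 counts per library. GABRB1, a beta subunit, had group medians from 2.61 to 3.46 CPM, and the SGA piglet was higher in 7 of 12 pairs, with a mean difference of 0.12 ± 0.60 (log2, SD, 12 pairs). GABRA3, an alpha subunit of the immature set, had group medians from 1.39 to 2.09 CPM. It was higher in the SGA piglet in 8 of 12 pairs, with a mean difference of 0.20 ± 0.72. Without litters 4 and 7 the mean difference was 0.20 ± 0.63 for GABRB1 and 0.22 ± 0.77 for GABRA3, each with 7 of 10 pairs higher. The fitted size effects were -0.06 (SE 0.168) and -0.003 (SE 0.181), with FDR p of 0.986 and 1.0 by edgeR. The span of 2 standard errors was -0.39 to 0.28 for GABRB1 and -0.36 to 0.36 for GABRA3. For GABRB1 the unadjusted p of 0.836 by edgeR is larger than its standard error implies, so its span may be too narrow.

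**Figure D3:**
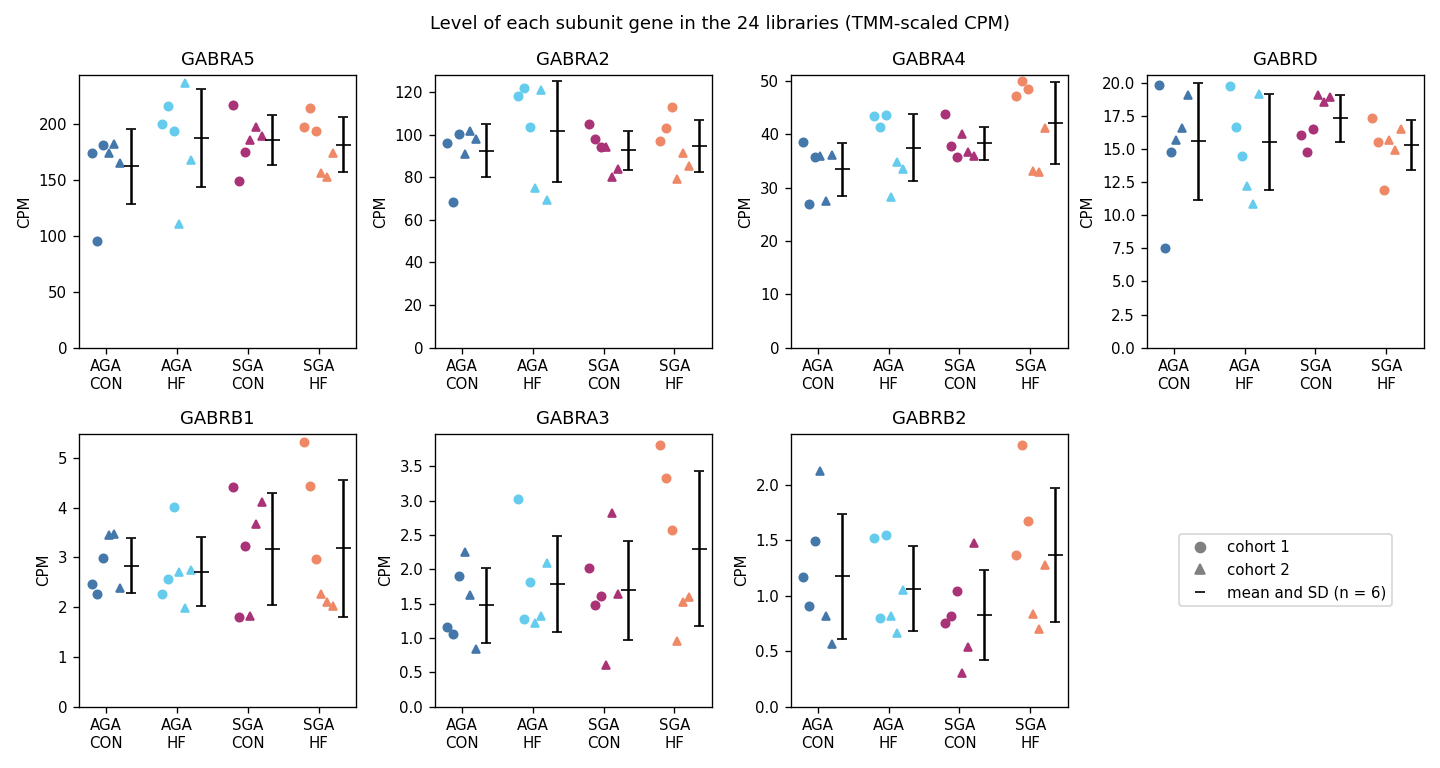
CPM of the 7 genes in the 4 groups, each point 1 library, circles cohort 1 and triangles cohort 2, with the mean and SD of 6 libraries in black and each axis starting at 0. The groups overlap for all 7 genes, and AGA CON replicate 2 is the low circle of GABRA5 at 94.9 CPM, of GABRA2 at 68.2 CPM and of GABRD at 7.53 CPM.

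Split by diet, 0 of 7 genes were called in either comparison of size. For SGA against AGA on CON 0.129% of all genes were called (21 of 16326), and the smallest FDR p of the 7 was 0.588. An unadjusted p under 0.05 was found for 1 of 7 members and 6.59% of all genes. For SGA against AGA on HF 0.288% were called (47 genes), with a smallest FDR p of 0.668 among the 7. Here 1 of 7 members and 8.02% of all genes had an unadjusted p under 0.05. For the interaction of size and diet 0 of 7 were called against 0.049% of all genes (8 genes). The smallest FDR p of the members was 0.721, and 1 of 7 members and 4.01% of all genes had an unadjusted p under 0.05. The exact litter-level test of the interaction called 0 of 7, and 0.0% of all genes.

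For diet, 0 of 7 genes were called by edgeR, where 26 of all genes or 0.159% were. No member had an unadjusted p under 0.05, DESeq2 and limma voom called 0 of 7, and the smallest FDR p was 0.757, that of GABRA4. The estimate was higher in HF piglets for 6 of 7, with a median log2 fold change of 0.11 beside 0.002 over all genes. GABRA4 had 35.9 ± 4.69 CPM on CON and 39.8 ± 7.12 CPM on HF (SD, n = 12 libraries each), and a fitted diet effect of 0.15 (SE 0.077). HF against CON called 0 of 7 in AGA piglets, where 0.0674% of all genes were called, and 0 of 7 in SGA piglets, where 0.0919% were. The smallest FDR p of the members was 0.699 and 0.665 in these contrasts, with 1 of 7 under an unadjusted 0.05 in each. Under that level were 6.09% of all genes in AGA and 5.16% in SGA piglets. The exact permutation test over 6 against 6 litter means called 0 of 7, and likewise 0.0% of all genes.

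The diet estimates of the 7 genes had opposite signs in the cohorts. In cohort 1 alone, fitted on groups and sex, HF was the higher for 7 of 7 genes. GABRA4 had a log2 fold change of 0.33 (SE 0.091), GABRA5 0.33 (SE 0.129), GABRA2 0.23 (SE 0.094) and GABRA3 0.75 (SE 0.268). In cohort 2 alone HF was the lower for 7 of 7, with -0.06 (SE 0.092), -0.14 (SE 0.129), -0.08 (SE 0.115) and -0.17 (SE 0.381) for the same genes. GABRB1 went from 0.33 (SE 0.249) to -0.45 (SE 0.240) and GABRD from 0.11 (SE 0.177) to -0.27 (SE 0.135). None of these passed the FDR threshold within a cohort (smallest FDR p 0.885 by edgeR among the diet estimates of the 7). A cohort holds 3 litters on each diet, and the difference between the cohorts was not tested. The libraries that stood apart lay on opposite diets, AGA CON replicate 2 in cohort 1 and AGA HF replicate 4 in cohort 2. GABRA5 had 94.9 and 110.8 CPM in them. The cohorts were not fitted without these libraries, so their part in the opposite signs was not tested. Cohort 1 had the higher mean level for 6 of the 7 genes, with 41.0 ± 6.48 against 34.6 ± 4.05 CPM for GABRA4 and 101.5 ± 13.7 against 89.1 ± 13.8 CPM for GABRA2 (SD, n = 12).

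**Figure D4:**
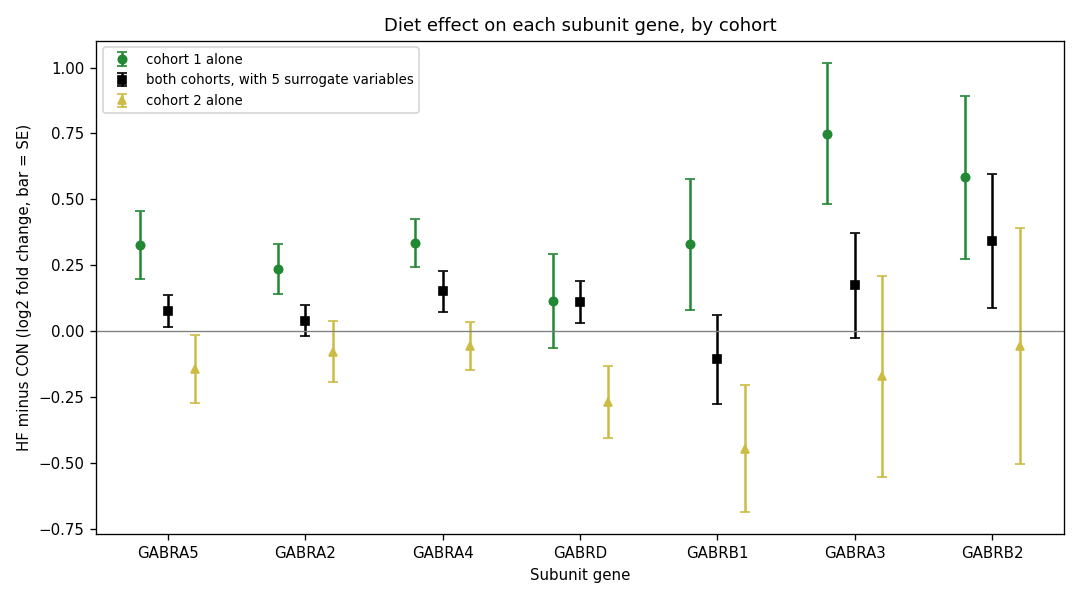
Log2 fold change of HF against CON for the 7 genes with its SE, in cohort 1 alone (green circles), in both cohorts with 5 surrogate variables (black squares) and in cohort 2 alone (yellow triangles). Cohort 1 lies above 0 and cohort 2 below 0 for all 7 genes, from 0.33 to -0.06 for GABRA4. Cohort 1 includes AGA CON replicate 2 and cohort 2 includes AGA HF replicate 4, the libraries that stood apart.

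The balance of alpha subunits associated with maturity and immaturity was taken as the log2 ratio of GABRA4 to the sum of GABRA2, GABRA3 and GABRA5, each in CPM per kb. It was -3.00 ± 0.20 (SD, n = 24 libraries), with linear ratios between 0.0887 and 0.159. AGA CON libraries ranged from -3.50 to -2.65 (median -3.00), SGA CON from -3.17 to -2.79 (median -3.05), AGA HF from -3.49 to -2.79 (median -3.04) and SGA HF from -3.00 to -2.80 (median -2.87). The groups overlapped. The SGA piglet had the higher ratio in 3 of 6 pairs on CON, with a mean difference of 0.01 ± 0.20, and in 5 of 6 pairs on HF, with 0.18 ± 0.22 (SD). Over 12 pairs the mean difference was 0.10 ± 0.22. Without litters 4 and 7 it was 0.15 ± 0.20 with 8 of 10 pairs higher, 0.04 ± 0.20 on CON (3 of 5) and 0.25 ± 0.15 on HF (5 of 5). The mean of litters was -3.02 ± 0.20 on CON and -2.98 ± 0.14 on HF. Since GABRA5 holds most of the denominator, the ratio is largely that of GABRA4 to GABRA5.

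The choice of denominator changed the count of pairs. Against GABRA2 alone, GABRA4 was relatively higher in the SGA piglet in 11 of 12 pairs, with a mean difference of 0.22 ± 0.24 (log2, SD), 0.18 in cohort 1 and 0.26 in cohort 2. Against GABRA5 alone it was higher in 8 of 12 pairs (0.08 ± 0.24), and against GABRA3 alone in 4 of 12 (-0.03 ± 0.85). Without litters 4 and 7 these counts were 10 of 10 against GABRA2 (0.25 ± 0.25), 8 of 10 against GABRA5 (0.14 ± 0.22) and 3 of 10 against GABRA3 (-0.10 ± 0.92). GABRA2 and GABRA4 are neighbours on chromosome 8 and had Pearson correlation 0.577 over 24 libraries, and 0.398 over 22.

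**Figure D5:**
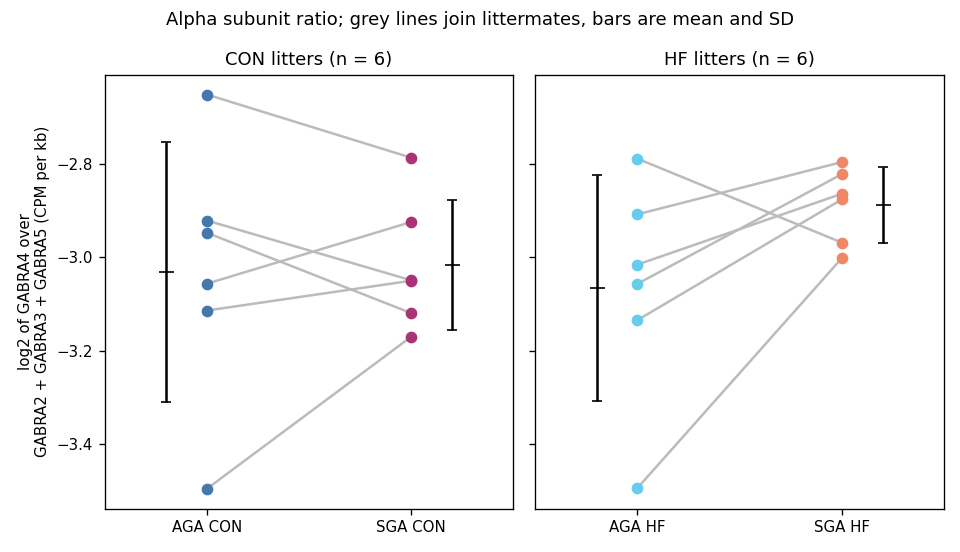
Log2 ratio of GABRA4 to the sum of GABRA2, GABRA3 and GABRA5 (CPM per kb) in AGA and SGA piglets on CON (left) and HF (right); grey lines join littermates and black bars are the mean and SD of 6 libraries. Lines rise from AGA to SGA in 3 of 6 CON and 5 of 6 HF litters, and the lowest AGA libraries are at -3.50 and -3.49.

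Pairs of members varied together to different degrees over the 24 libraries, which share litters and cohorts. GABRA5 had a Pearson correlation of log2 CPM of 0.725 with GABRA2 and 0.679 with GABRA4. Without AGA CON replicate 2 and AGA HF replicate 4 these were 0.591 and 0.471. GABRA4 had 0.507 with GABRA3 and 0.403 with GABRB2, and 0.447 and 0.412 without those libraries. Among the low genes the correlation was 0.664 between GABRA3 and GABRB1, 0.654 between GABRA3 and GABRB2 and 0.485 between GABRB1 and GABRB2, and 0.655, 0.653 and 0.481 without those libraries. GABRA3 with GABRA4 was above GABRB1 with GABRB2 over 24 libraries and below it over 22. GABRD had 0.496 with GABRA5 over 24 libraries and -0.240 over 22, so this relation rested on the 2 libraries. Littermates, which share diet, sex and cohort, had a Pearson correlation of log2 CPM over 12 litters of 0.725 for GABRA4, 0.530 for GABRA5, 0.436 for GABRD and 0.339 for GABRA2. For the low genes it was 0.162 (GABRA3), -0.085 (GABRB1) and -0.234 (GABRB2). Over the 10 litters other than 4 and 7 it was 0.717 for GABRA4, -0.253 for GABRA5, 0.427 for GABRD and 0.339 for GABRA2, so that of GABRA5 rested on those litters.

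The levels also moved with cell type markers. GABRA5 had a correlation of 0.840 with the pan-neuronal marker sum and -0.773 with the astrocyte sum, which became 0.369 and -0.412 over the 22 other libraries. GABRD had 0.705 with the pan-neuronal sum, and 0.173 over 22 libraries. GABRA2 had -0.734 with the sum of 7 microglia markers, and -0.639 over 22. The microglia sum ran from 73.6 to 239.4 CPM over all libraries and was mostly higher in cohort 2. GABRA2 had means of 101.5 CPM in cohort 1 and 89.1 CPM in cohort 2. Correlations with marker sums pool the cohorts, and the part of cohort in them was not tested. Interneuron markers, whose cells make GABA, had sums from 386.0 to 675.8 CPM and correlations with the 7 genes between -0.109 and 0.445. Over 22 libraries these correlations lay between -0.244 and 0.411.

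The tested genes with a symbol whose log2 CPM was most like that of a member, out of 12361, were listed as a description over 24 libraries. For GABRA5 they were RYR2 (Pearson correlation 0.940, and 0.808 over 22 libraries), PRNP (0.925, and 0.748) and GRIA2 (0.916, and 0.777), which encode a calcium release channel, the prion protein and an AMPA glutamate receptor subunit. For GABRA2 they were CFAP36 (0.888), NCKAP1 (0.863) and MALT1 (0.842), with 0.842, 0.815 and 0.828 over 22 libraries. For GABRA4 they were B3GALNT1 (0.841), TMTC1 (0.765) and KCND2 (0.764), the last a potassium channel of dendrites, with 0.782, 0.750 and 0.693 over 22 libraries. GABRD was most like RTN4R (0.831), the Nogo receptor, and then KCNK12 (0.827) and ATP6AP1 (0.825), with 0.686, 0.656 and 0.640 over 22 libraries. Among the low genes, GABRA3 was nearest to BRAF (0.859), NCOA6 (0.821) and TTC3 (0.817), GABRB1 to ALG13 (0.808), CDH2 (0.790) and TBC1D9 (0.790), and GABRB2 to YEATS2 (0.724) and NBEA (0.716). Across all tested genes with a symbol, 5.58% had a correlation over 0.6 with GABRA5, 0.906% with GABRA4 and 0.437% with GABRB2.

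Other genes of GABA signalling were taken from fixed lists, and 0 were called for size, diet or the interaction (edgeR, same threshold). Over all genes tested, 0.478%, 0.159% and 0.049% were called in these contrasts. Of the 8 other GABA-A subunit genes tested, 5 had a higher estimate in SGA piglets. None had an unadjusted p under 0.05 for size or diet, beside 10.6% and 7.09% of all genes. GABRG1 had a fitted size effect of -0.41 (SE 0.310, adjusted p = 0.855 by edgeR) and GABRR1 of 0.22 (SE 0.179, adjusted p = 0.871).

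Genes that make, move and break down GABA numbered 13 tested, of which 9 had a higher estimate in SGA piglets and 8 on HF. An unadjusted p under 0.05 was found for 2 of them for size and 2 for diet, beside 10.6% and 7.09% of all genes. SLC38A3, a glutamine transporter of astrocytes, had 122.8 ± 18.1 CPM in AGA and 133.3 ± 17.0 CPM in SGA piglets (SD, n = 12), with 0.12 (adjusted p = 0.691), and 136.3 ± 19.2 CPM on CON against 119.8 ± 12.8 on HF, with -0.15 (adjusted p = 0.581). Of 4 tested genes of GABA-B receptors, 2 had a higher estimate in SGA piglets. Among them GABBR1, an obligatory subunit of those receptors, had 476.3 ± 63.6 CPM in AGA and 524.5 ± 42.9 CPM in SGA piglets and was higher in 9 of 12 SGA littermates, with 0.15 (SE 0.062, adjusted p = 0.673).

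Of 6 tested chloride transporter genes, 1 had a higher estimate in SGA piglets and 3 on HF. That gene was SLC12A5, the chloride exporter of mature neurons, at 302.7 ± 40.3 CPM in AGA and 337.7 ± 14.5 CPM in SGA piglets (SD, n = 12). It was higher in 10 of 12 SGA littermates, with a fitted 0.07 (SE 0.035, adjusted p = 0.747 by edgeR). Both libraries that stood apart are AGA, and the littermate counts of SLC12A5 and GABBR1 include their litters. SLC12A2, the chloride importer prominent in immature neurons, had 61.4 ± 11.4 CPM in AGA and 54.0 ± 11.7 CPM in SGA piglets, with -0.08 for size and -0.25 for diet (SE 0.103, adjusted p = 0.665). Among 19 tested genes of the inhibitory synapse scaffold and receptor trafficking, 12 had a higher estimate in SGA piglets and 7 on HF. GABARAPL2, of the family that binds and moves these receptors, had -0.10 for size (adjusted p = 0.721). IQSEC3, a protein of the inhibitory postsynapse, had 599.5 ± 62.4 CPM on CON and 528.9 ± 53.3 CPM on HF, with -0.17 (SE 0.051, adjusted p = 0.482), the smallest FDR p for diet in these lists. Split by size, HF against CON was -0.28 in AGA piglets (adjusted p = 0.402 by edgeR, just outside the threshold). In SGA piglets it was -0.07 (adjusted p = 0.895).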

How the data were processed

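Hippocampal RNA from 24 piglets was sequenced as stranded single-end libraries. The authors trimmed reads with Trimmomatic 0.33, aligned them to the Sscrofa10.2 assembly with STAR 2.5.2a, and counted reads on gene exons with featureCounts of Subread 1.5.0, keeping strand. They deposited raw counts per Entrez gene. The entry without an identifier, 0.613 to 1.62% of a library, was left out. Symbols came from a RefSeq table of Sscrofa11.1 matched on the gene identifier (23036 of 38882 matched, 15993 with a symbol). Reads were not tagged by molecule, so counting floors cover counting error only. No sequence is shown.

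A gene was kept where 3 or more libraries reached 1 CPM, library sizes and TMM factors were recomputed, and edgeR 4.0.16 (glmQLFit, glmQLFTest) in R 4.3.3 was fitted on the 4 groups, sex and 5 surrogate variables (sva 3.50.0, log2 CPM with prior count 2). The Benjamini-Hochberg FDR covered 7 contrasts. The study's own tool, limma voom (limma 3.58.1), and DESeq2 1.42.0 were alternatives. A standard error is the fold change divided by the root of its F statistic. For some low genes the p-value was larger than this standard error implies. Standard errors had a median of 0.105 for size and 0.144 for pairwise contrasts (common dispersion as a coefficient of variation, 0.117). Exact tests flipped the sign of 12 littermate differences (4096 patterns) or split 12 litters 6 against 6 (924 splits), two-sided, for all genes. Both procedures were tested on simulated data.

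Littermates are paired in the labels. Over 16326 genes their deviations from group means had a correlation of 0.154 on average (0.014 to 0.329 over 12 litters). The members and gene lists were chosen with earlier results of these data known. Named genes are the 7 members, the other subunit genes in the files, per list the called genes or else those with the smallest p for size and for diet, and for each member the 3 genes with the highest correlation. Some genes this rule names are not reported here. Alternatives changed the test, scaling, filter, surrogate variables, cohort, pairing and litters. Those without litters 4 and 7, and the exact test with 1 litter left out, were chosen after seeing the data.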

Additional observations from a re-analysis of the deposited data

Results flagged for a closer look

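A library far from the other 5 of its group was found in 2 of 32 sets of 6 libraries examined (7 genes and the alpha subunit ratio in 4 groups), by Dixon's test at the 95% level, which flags about 1 in 20 sets by chance. Both were AGA CON replicate 2. GABRA5 had 94.85 CPM in this library, where the other 5 lay between 165.2 and 181.6 CPM, and GABRA2 had 68.20 CPM, where the others lay between 90.64 and 101.9 CPM. The same library had the lowest pan-neuronal marker sum of the 24 (4010 CPM) and the highest sums of astrocyte (14145 CPM), microglia (239.4 CPM) and endothelial markers (264.7 CPM). Their part in these values was not tested.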

How the results depend on the processing

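No alternative fit called any of the 7 genes for diet, the interaction, SGA against AGA on HF, or HF against CON in AGA or SGA piglets. For size, the exact litter-level test called 1 gene in place of 0 (GABRA4, log2 difference 0.184, adjusted p = 0.173), and 1 gene again without litters 4 and 7. With each single litter left out, a choice made after seeing the data, this test called 1 to 2 genes: GABRA4 each time (FDR p 0.199 to 0.283), with GABRA3 (0.339) without litter 8 and GABRA5 (0.314) without litter 9. The edgeR fit called 0 with each litter left out. Leaving out 1 litter at a time gave 0 to 1 genes for SGA against AGA on CON: without litter 5, whose fit called 462 of all genes in place of 21, GABRB2 passed (log2 fold change -0.98, adjusted p = 0.392 by edgeR). The replicate block, with littermates paired by litter, called 0 of 7 in the 4 contrasts it can test and changed no call. It could not be used for contrasts of diet, which vary between litters. The fit with the block, which also drops sex and the surrogate variables, called 420 of all genes for size in place of 78. Other fits gave 210 (DESeq2), 53 (limma voom), 108 (RLE scaling), 124 (no filter), 43 (at least 6 libraries), 13 (no surrogate variables), 174 (2 of them), 106 (cohort term), 0 in each cohort alone and 1200 (FDR within the contrast), and 14 to 1259 with a litter left out. At FDR p under 0.05, 0 of 7 were called. The GABRA4 size estimate lay between 0.07 and 0.20 over 26 alternatives, with its sign kept in all of them. The signs of GABRA3, GABRB1 and GABRD for size changed in 13, 10 and 8 of 26. The HF minus CON difference of the alpha ratio, 0.047, became -0.2114 for GABRA4 over GABRA3 alone. For GABRA3, GABRB1 and GABRB2 counting error alone gives a coefficient of variation of 27.3%, 21.3% and 34.97%, and the spread between libraries was larger than that.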
